A study of Mus musculus with 32 samples.

Results

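The solute carrier 22 (Slc22) family was followed in mouse kidney through 10 of its genes, taken by symbol from the 54532 genes of a count table: Slc22a5, Slc22a6, Slc22a7, Slc22a8, Slc22a12, Slc22a13, Slc22a19, Slc22a28, Slc22a29 and Slc22a30. They were taken by name, with no threshold on a measured value. RNA-seq was done on whole kidney of 32 C57BL/6 mice of wt genotype, aged 6 to 8 weeks, with 1 library per mouse and 4 mice in each of 8 groups. Male and female mice were taken before treatment (Day 0) or on Day 2, Day 3 or Day 5 after a single dose of 20 mg/kg cisplatin, a platinum drug that injures the proximal tubule and is used to induce acute kidney injury (cisplatin-AKI). The 8 groups therefore differed in sex and in day only, and the Day 0 mice were the untreated reference within each sex. The labels of the Day 0 females name cisplatin, although the study describes Day 0 kidneys as healthy, and they were taken as untreated. The comparisons asked how each transporter changed from Day 0 within a sex, how males differed from females on each day, and whether the change from Day 0 differed between the sexes.

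Slc22 proteins move organic anions, organic cations, zwitterions and urate across the plasma membrane, and in the kidney most of them sit in the proximal tubule, which takes drugs, metabolites and toxins from the blood and returns filtered solutes to it. Slc22a6 (OAT1) and Slc22a8 (OAT3) load organic anions into the tubule cell from the blood side, and Slc22a7 (OAT2) is an anion transporter of liver and kidney. Slc22a12 (URAT1) exchanges urate at the luminal side, Slc22a13 (OAT10) carries nicotinate and urate, Slc22a19 is an organic anion transporter of the luminal membrane, and Slc22a5 (OCTN2) is the sodium-dependent carnitine transporter. Slc22a28, Slc22a29 and Slc22a30 are rodent members that have been studied much less. Several kidney anion transporters are known to differ in level between male and female rodents.

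Of the 10 genes, 6 lay close together on chromosome 19 in the coordinates of the count table, given here as GRCm38. Slc22a28 (chr19:8062209-8131982, minus strand), Slc22a29 (chr19:8160165-8218900, minus strand) and Slc22a30 (chr19:8335371-8405111, minus strand) were neighbours, with Slc22a19 (chr19:7673061-7711310, minus strand) before them and Slc22a8 (chr19:8591254-8611834, plus strand) and Slc22a6 (chr19:8617996-8628299, plus strand) after them. Slc22a12 was on the same chromosome (chr19:6535845-6543019, minus strand), whereas Slc22a5 (chr11:53864542-53891660, minus strand), Slc22a7 (chr17:46432183-46438457, minus strand) and Slc22a13 (chr9:119192974-119209098, minus strand) were elsewhere.

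The promoters of Slc22a28, Slc22a30 and Slc22a29 are shown because these 3 neighbours carried the differences between the sexes described below, the first pair higher in males and the last higher in females. Each line is the 250 bases before the RefSeq start on GRCm38.p6, read 5′ to 3′ on the minus strand, and capitals in the Slc22a30 and Slc22a29 lines mark bases that differ from Slc22a28 in a global alignment. The windows are chr19:8131983-8132232, chr19:8405106-8405355 and chr19:8218901-8219150 in that order.
Slc22a28: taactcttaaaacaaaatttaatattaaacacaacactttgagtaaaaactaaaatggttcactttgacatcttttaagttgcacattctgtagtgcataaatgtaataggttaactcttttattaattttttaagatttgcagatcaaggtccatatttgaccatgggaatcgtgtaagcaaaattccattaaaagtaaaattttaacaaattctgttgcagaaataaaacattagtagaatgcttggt
Slc22a30: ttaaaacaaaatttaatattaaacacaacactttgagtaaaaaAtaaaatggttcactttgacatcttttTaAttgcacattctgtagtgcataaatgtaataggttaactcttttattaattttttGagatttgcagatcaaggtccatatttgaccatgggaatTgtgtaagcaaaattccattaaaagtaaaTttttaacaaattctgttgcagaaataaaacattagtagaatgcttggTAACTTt
Slc22a29: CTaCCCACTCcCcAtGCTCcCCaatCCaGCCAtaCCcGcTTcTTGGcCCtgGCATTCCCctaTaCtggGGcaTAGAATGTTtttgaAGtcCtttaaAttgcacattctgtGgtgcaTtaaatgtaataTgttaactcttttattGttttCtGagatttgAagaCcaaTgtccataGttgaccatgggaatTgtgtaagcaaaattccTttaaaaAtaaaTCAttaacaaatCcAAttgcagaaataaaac
The first pair shared 238 of 250 bases (95.2%), with a longest identical run of 54 bases. Slc22a29 shared 172 of 250 bases (68.8%) with Slc22a28, and the likeness was uneven: 142 of the 165 bases next to the start were identical (86.1%), against 30 of the 85 bases farthest from it (35.3%), a division chosen after the sequences were seen. GC content was 26.8% for Slc22a28, 25.6% for Slc22a30 and 38.0% for Slc22a29.

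The 6 letters GTTAAC, which read the same on both strands and were chosen for search after the sequences were seen, occurred in 4 of the 9 member promoters with a RefSeq entry and in 2.563% of 32851 promoters of the same length. The match began 140 bases before the start in Slc22a28, 146 in Slc22a30, 121 in Slc22a29 and 138 in Slc22a19. Slc22a19 shared 62.8% of its promoter bases with Slc22a28 and 63.6% with Slc22a30. Because these promoters are alike, the 4 matches cannot be counted as independent. On either strand GTTAAT, which cannot share letters with GTTAAC, was found in 3 of the 9 promoters (Slc22a6, Slc22a8 and Slc22a29) and in 6.432% of all promoters. AGAACA was found in Slc22a19 alone among the 9 (16.085% of all promoters), as was TTCNNNGAA (7.02% of all promoters), and the matches of these last motifs, which can overlap, did not do so there. These matches describe the letters in the windows, and binding was not measured.

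The close relation of the 3 genes extended to their transcripts, which bears on how reads could be assigned. Annotated transcripts of Slc22a28 and Slc22a30 were 98.9% identical over 1485 aligned positions and shared 816 windows of 50 bases, 41.74% of the windows of the first and 32.09% of the second. Slc22a29 shared 542 such windows with Slc22a27 (24.39% of its own) and 208 with Slc22a30, and Slc22a5 shared 812 with Slc22a21 (26.95% of its own). Reads from these stretches may have been split between copies or dropped, so the separate levels of the 3 neighbours, and of Slc22a5, are uncertain. The study's paired reads were longer than these windows. The shares above therefore describe the sequences, and the share of reads affected was not measured. Slc22a27 itself was at most 5.49 CPM (reads scaled to library size) in any library.

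The libraries held 16502107 to 35961325 counts, and several stood apart from the rest. Reads from the mitochondrial genome were 4.49 to 24.0% of the total at Day 0 and 4.87 to 14.0% at Day 2 and Day 3, but 42.5, 78.9, 79.8 and 79.7% in male Day 5 mice 1 to 4 and 31.6, 77.9, 22.2 and 9.30% in female Day 5 mice 1 to 4. The 4 libraries over 50% kept 3780528 to 5340637 other reads, against 11334153 or more in each remaining library. The library labelled male Day 5 mouse 1 held 4153 reads of Xist, which is transcribed from the inactive X of females, against 59 to 260 in the other male Day 5 libraries, together with 387 reads of 4 Y-linked genes. This library therefore went against its label in part, and the male Day 5 changes and sex differences that passed a test are given with and without it. Smaller numbers of such reads were found in the other male Day 5 libraries and at Day 0. The 8 male Day 2 and Day 3 libraries held 0 to 5 Xist reads, against 260, 89 and 59 in male Day 5 mice 2 to 4. Results without mouse 1 rest on these male Day 5 libraries. Female Day 0 mice 1 to 4 held 221, 5, 44 and 66 reads of the Y-linked genes, against 0 in all 12 later female libraries and 1397 to 2568 in the male Day 0 libraries, and male Day 0 mouse 4 held 242 Xist reads. Day 0 mouse 4 of both sexes had summed thick ascending limb markers of 451.5 CPM (male) and 527.4 CPM (female), against 877 CPM or more in the other Day 0 libraries. Female Day 0 mouse 2 had 9675 CPM of summed hepatocyte markers against 54.7 to 373 CPM in the other 3 female Day 0 libraries, and adrenal cortex markers reached 1577 CPM at female Day 3 and were 403 to 1023 CPM at female Day 5, against 3.02 to 230.2 CPM at female Day 0.

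The tissue label was checked against 10 proximal tubule markers. Their summed level was 9649 to 12303 CPM in male and 9006 to 12893 CPM in female Day 0 kidney, 6157 to 9935 CPM at male Day 2, 3801 to 12566 CPM at female Day 2, 7242 to 11137 CPM at male Day 3, 3632 to 9380 CPM at female Day 3 and 2985 to 8741 CPM at female Day 5. In male Day 5 mice 1 to 4 it was 5160, 1348, 714 and 718 CPM. Erythroid markers summed to 414 to 2595 CPM at Day 0 over both sexes, 0.812 to 164 CPM at Day 2 and Day 3 and 199.1 to 5218 CPM at male Day 5, and all 5 were called lower at male Day 3, female Day 2 and female Day 3. At male Day 5 leukocyte markers were 41.3 to 299.9 CPM (33.0 to 92.9 CPM at male Day 0) and adipocyte markers 198 to 711 CPM (91.2 to 752 CPM at male Day 0). Collecting duct markers were 873 to 1579 CPM there, above the whole male Day 0 range of 448 to 811 CPM, and adrenal cortex markers were 22.7 to 115 CPM against 0.691 to 14.9 CPM. In whole kidney, fewer cells of a type and less RNA per cell cannot be told apart, and the part of these shifts in the results below was not tested.

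**Figure D1:**
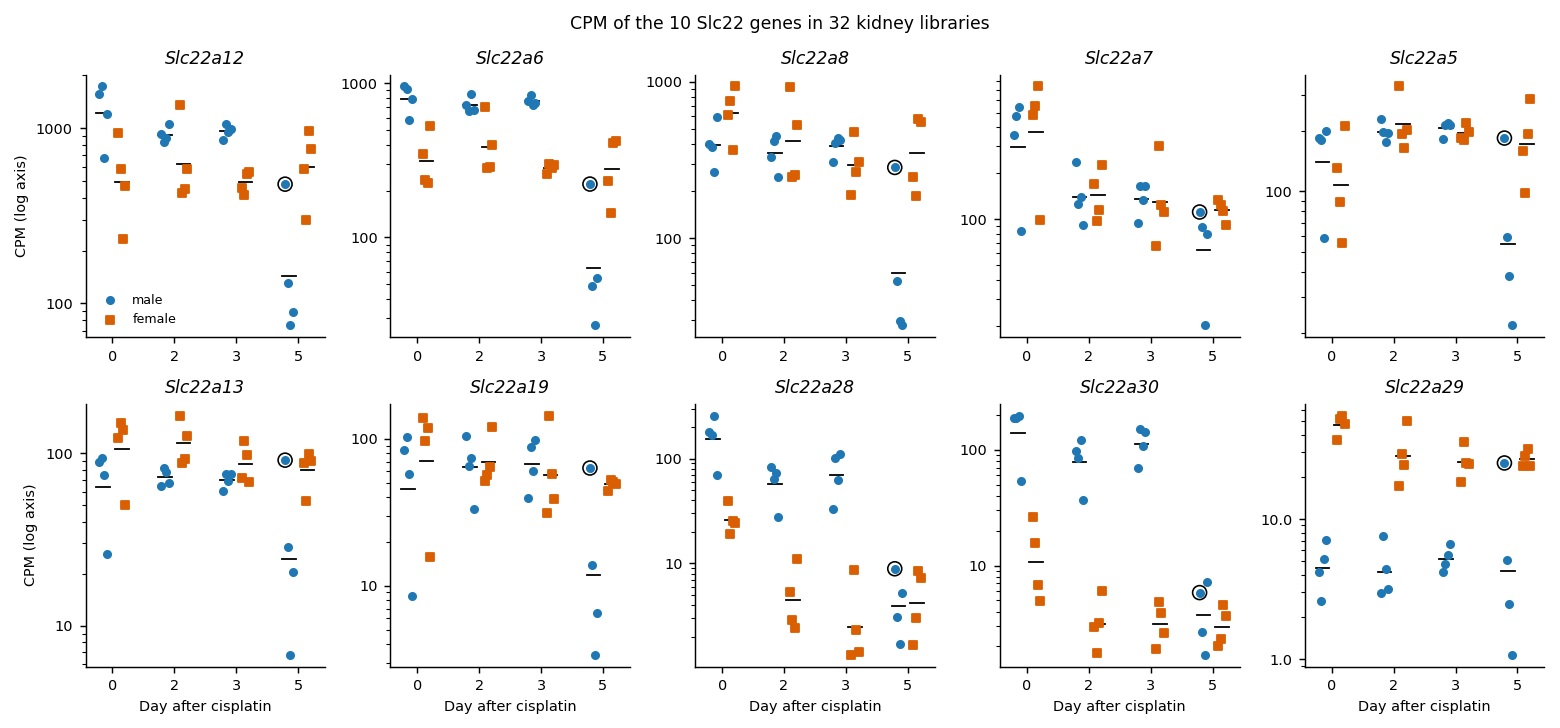
Level of each of the 10 Slc22 genes (CPM on a log axis) against day, with 1 point per mouse, circles for males, squares for females and bars at the geometric mean of each group of 4. The ring marks the library labelled male Day 5 mouse 1, and Slc22a28, Slc22a30 and Slc22a29 are among the genes whose male and female points lie apart at Day 2 and Day 3.

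Between genes, levels were compared as CPM per kilobase of annotated transcript (CPM per kb, mean ± SD, n = 4). In male Day 0 kidney Slc22a12 led at 572 ± 208 CPM per kb and did not overlap the next gene, Slc22a6, at 202 ± 42.2 CPM per kb. After it came Slc22a7 (174 ± 96.5 CPM per kb), Slc22a8 (118 ± 39), Slc22a28 (84.1 ± 38.4), Slc22a5 (50.6 ± 21.2), Slc22a30 (46.7 ± 20.5), Slc22a13 (35.5 ± 15.6), Slc22a19 (11.6 ± 7.54) and Slc22a29 (2.1 ± 0.826), and each of these overlapped its neighbour in the order. The female order at Day 0 was Slc22a12 (247 ± 131 CPM per kb), Slc22a7 (223 ± 128), Slc22a8 (192 ± 69), Slc22a6 (83.2 ± 35.2), Slc22a13 (57.1 ± 22.2), Slc22a5 (39.4 ± 21.6), Slc22a29 (21 ± 3.47), Slc22a19 (17 ± 9.91), Slc22a28 (13.4 ± 4.29) and Slc22a30 (3.99 ± 2.92), and only the last pair of neighbours did not overlap. Beyond the first place in males and the last in females, the ranges of neighbouring genes in these orders thus overlapped across mice. The order of the genes within each mouse was not compared.

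Slc22a28 and Slc22a30 were higher in males and Slc22a29 was higher in females at Day 2 and Day 3, and 2 of these 3 differences were also called at Day 0. A gene was called when edgeR's quasi-likelihood test gave a Benjamini-Hochberg adjusted p under 0.05 with an absolute log2 fold change over 1.5. Slc22a28 in mice 1 to 4 was 181, 168, 257 and 69.2 CPM in males and 39.1, 19.1, 25.3 and 24.1 CPM in females at Day 0, so that the lowest male lay above the highest female. The log2 male/female difference was 2.67 ± 0.41 (SE), a 6.37-fold higher level in males (edgeR adjusted p = 0.033). Slc22a29 went the other way, at 4.19, 2.6, 5.21 and 7.08 CPM in males and 36.7, 51.8, 54.7 and 47.6 CPM in females. It was 9.93-fold higher in females (log2 male/female -3.31 ± 0.33, edgeR adjusted p = 0.0153), and no male library came near the female range. Slc22a30 was 189.8, 188, 197 and 53.9 CPM in males and 26.5, 15.6, 6.8 and 4.89 CPM in females, groups that also did not overlap, but its log2 difference of 3.57 ± 0.62 missed the threshold narrowly (edgeR adjusted p = 0.0529), and most alternatives called it, with DESeq2 (adjusted p = 5.48e-08), 1 fit over all 8 groups (edgeR adjusted p = 0.000147) and at least 10 counts in every library (edgeR adjusted p = 0.0354) among them. Female mouse 1, with 221 Y-linked reads, was the highest female library for Slc22a28 and for Slc22a30, and without it the log2 differences were 2.89 and 4.11.

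At Day 0, 1 of 10 members was called higher in males, against 0.175% of 16042 genes tested, and 1 of 10 higher in females, against 0.187%. Groups did not overlap for 4 of 10 members (these 3 and Slc22a6), against 5.9% of all genes tested. The Day 0 calls depended on single mice. Leaving out male mouse 4 brought Slc22a30 in (log2 difference 3.86, edgeR adjusted p = 0.0406) for 3 calls (0.412% of all genes in either direction), leaving out male mouse 1 or female mouse 2 or 3 left 0 calls, and leaving out any of the other 4 left Slc22a29 alone.

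At Day 2 and Day 3 the same 3 genes were called, and the Day 3 groups lay far apart. On Day 2, Slc22a30 was 98.3, 84.5, 121 and 36.7 CPM in male mice 1 to 4 and 2.92, 1.75, 3.19 and 6.05 CPM in female mice 1 to 4, a 25.2-fold difference (log2 4.65 ± 0.47, edgeR adjusted p = 0.000715). Slc22a28 was 82.7, 63.6, 73.6 and 27.6 CPM against 5.31, 2.86, 2.41 and 10.9 CPM, which is 11.9-fold (log2 3.57 ± 0.51, edgeR adjusted p = 0.00762). Slc22a29 was 2.99, 7.56, 4.42 and 3.15 CPM in males and 17.3, 29.3, 24.3 and 49.9 CPM in females, 6.53-fold higher in females (log2 male/female -2.71 ± 0.39, edgeR adjusted p = 0.00763). In all 3 the lowest library of the higher sex exceeded the highest of the other. On Day 3, Slc22a30 was 70.0, 151, 108 and 142 CPM in males and 1.9, 4.83, 3.9 and 2.63 CPM in females, a 35.5-fold difference (log2 5.15 ± 0.37, edgeR adjusted p = 0.000209). Slc22a28 was 32.9, 101, 62.3 and 111 CPM against 1.35, 8.56, 2.3 and 1.43 CPM, which is 22.3-fold (log2 4.48 ± 0.71, edgeR adjusted p = 0.00591). Slc22a29 was 4.19, 4.79, 5.58 and 6.67 CPM in males and 18.5, 35.6, 25.3 and 24.8 CPM in females, 4.88-fold higher in females (log2 male/female -2.29 ± 0.21, edgeR adjusted p = 0.000334). Again no library of one sex entered the range of the other.

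Each of these 3 genes kept its call at Day 2 and at Day 3 whichever single mouse was left out. Members called higher in males were 2 of 10 on both days, against 0.506% of the 16608 tested at Day 2 and 0.894% of the 16673 tested at Day 3, and 1 of 10 was called higher in females, against 0.307% and 1.04%. Non-overlapping groups were found for 4 of 10 members at Day 2 (these 3 and Slc22a13, log2 male/female -0.66 ± 0.21, edgeR adjusted p = 0.172), against 9.16% of all genes, and for 5 of 10 at Day 3, against 25.3%. With all genes kept regardless of count, Slc22a28 at Day 2 missed the threshold (edgeR adjusted p = 0.0611).

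**Figure D2:**
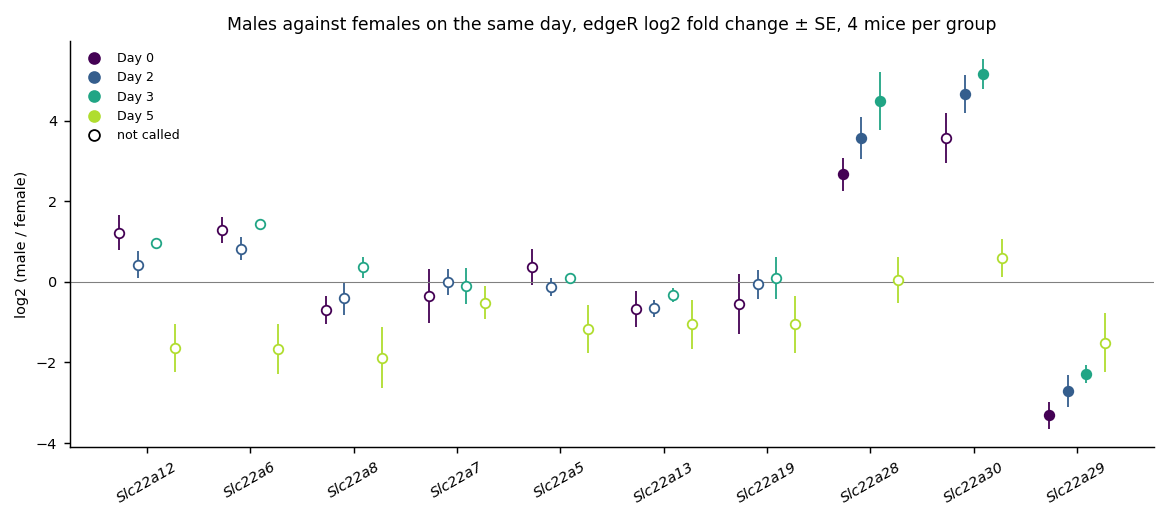
Log2 male/female difference of each gene (points, with bars of 1 SE) at Day 0, 2, 3 and 5, filled where called. Slc22a30 and Slc22a28 lie above 0 and Slc22a29 below 0 at Day 0, 2 and 3, and at Day 5 no gene is filled.

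At Day 5 the male and female levels of Slc22a28 and Slc22a30 came close. Slc22a28 was 8.89, 3.1, 1.7 and 5.26 CPM in males (11 to 163 counts) and 1.65, 3.03, 8.37 and 7.24 CPM in females (25 to 242 counts), a log2 difference of 0.04 ± 0.57 (edgeR adjusted p = 0.977). Slc22a30 was 5.83, 2.68, 1.7 and 7.15 CPM in males and 2.01, 2.3, 4.53 and 3.68 CPM in females (log2 0.59 ± 0.47, edgeR adjusted p = 0.494). Without the library labelled male mouse 1 the log2 differences were -0.41 for Slc22a28 and 0.48 for Slc22a30 (edgeR adjusted p = 0.678 and 0.574). Both groups of libraries lay within the same range, and a p that misses the threshold does not show equal levels. Slc22a29 was 25.1, 5.07, 2.47 and 1.08 CPM in males and 23.9, 28, 31.9 and 23.7 CPM in females (log2 male/female -1.51 ± 0.72, edgeR adjusted p = 0.273). Of the 4 male values the first, from the library with Xist reads, lay within the female range, and without it the difference was -3.04 (edgeR adjusted p = 0.000687).

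Within females, Slc22a28 fell after cisplatin. From 39.1, 19.1, 25.3 and 24.1 CPM at Day 0, levels reached 2.41 to 10.9 CPM at Day 2, 1.35 to 8.56 CPM at Day 3 and 1.65 to 8.37 CPM at Day 5, with no overlap with Day 0. The fall was 5.18-fold at Day 2 (log2 -2.37 ± 0.46, edgeR adjusted p = 0.0387) and 8.18-fold at Day 3 (log2 -3.03 ± 0.61, edgeR adjusted p = 0.0465), and the Day 5 value of -2.41 ± 0.47 missed the threshold (edgeR adjusted p = 0.074). The Day 0 libraries of this comparison are those with 5 to 221 Y-linked reads, and the later ones had 0. Without mouse 1, which had the most, the log2 change of Slc22a28 was -2.12 at Day 2, -2.78 at Day 3 and -2.18 at Day 5, and none passed (edgeR adjusted p = 0.0827, 0.0927 and 0.204). Slc22a29 fell 1.9-fold at Day 3 (log2 -0.93 ± 0.22, edgeR adjusted p = 0.048), with Day 0 libraries of 36.7 to 54.7 CPM and Day 3 libraries of 18.5 to 35.6 CPM that did not overlap. Slc22a30 had a log2 change of -1.99 ± 0.55 at Day 2, -2.07 ± 0.54 at Day 3 and -2.10 ± 0.53 at Day 5, and none passed (edgeR adjusted p = 0.068, 0.0519 and 0.138). Without Day 0 mouse 1 these were -1.42, -1.504 and -1.56. Its Day 3 and Day 5 libraries all lay under the lowest Day 0 library of 4.89 CPM.

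For females as a group, 1 of 10 members was called lower at Day 2, against 0.883% of 16541 genes, and 1 of 10 at Day 3, against 1.97% of 17065. With the adjusted p alone 2 of 10 were lower at Day 3, against 4.28%. At Day 5 the edgeR count was 0 of 10 (0.228% of 16260 genes), with 4 of 10 at an unadjusted p under 0.05 against 15.7% of all genes, and DESeq2 called 3 (Slc22a7, Slc22a30 and Slc22a28) against 2.19% of all genes. Groups did not overlap for Slc22a28, Slc22a29 and Slc22a30 at Day 3 (3 of 10, against 19.5% of all genes) and at Day 5 (3 of 10, against 8.47%).

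The female calls were sensitive to 1 library. Without female Day 0 mouse 4, 3 members were called on each day, namely Slc22a7 (log2 -2.01, -2.03 and -2.36), Slc22a30 (-2.27, -2.35 and -2.37) and Slc22a28 (-2.43, -3.08 and -2.45 at Day 2, 3 and 5). Calls over all genes rose too in these fits, to 10.5, 11.4 and 4.17% of genes in either direction at Day 2, 3 and 5. Conversely the Slc22a28 call was lost in 5 of 8 fits that left out 1 mouse at Day 2 and in 6 of 8 at Day 3, with its log2 change staying between -2.97 and -2.12 at Day 2 and between -4.03 and -2.77 at Day 3. A fit with all genes kept took the Day 3 Slc22a28 call away by a small margin (edgeR adjusted p = 0.051). The Day 3 fall of Slc22a29 was as close to the threshold: it missed it with the size factors of DESeq2 (edgeR adjusted p = 0.0526), without mitochondrial genes (0.0508) and in 6 of 8 fits that left out 1 mouse (up to 0.168), with the log2 change between -1.10 and -0.80.

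In males the same pair of neighbours fell at Day 5, and by more than any other member. Slc22a30 went from 189.8, 188, 197 and 53.9 CPM to 5.83, 2.68, 1.7 and 7.15 CPM, a 33.7-fold fall (log2 -5.07 ± 0.57, edgeR adjusted p = 0.00381). Slc22a28 went from 181, 168, 257 and 69.2 CPM to 8.89, 3.1, 1.7 and 5.26 CPM, a 32.9-fold fall (log2 -5.04 ± 0.58, edgeR adjusted p = 0.00381). Every Day 5 library, including mouse 1, lay under every Day 0 library, and both calls held whichever mouse was left out, with log2 changes of -5.22 for Slc22a30 and -5.53 for Slc22a28 without the library labelled mouse 1. At Day 2 the log2 change was -1.47 ± 0.43 for Slc22a28 and -0.90 ± 0.45 for Slc22a30, and at Day 3 it was -1.17 ± 0.46 and -0.44 ± 0.40, none past the threshold (edgeR adjusted p = 0.0768, 0.211, 0.0897 and 0.432). Without male Day 0 mouse 4, Slc22a28 was called lower at Day 2 (log2 -1.73, edgeR adjusted p = 0.0294). Slc22a29, at most 7.08 CPM in males at Day 0, had no called change on any day.

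Slc22a6, the basolateral anion uptake transporter OAT1, was higher in males than in females at Day 3 and fell in males at Day 5. Its Day 0 levels were 954, 919, 578 and 796 CPM in males and 348, 237, 224 and 531 CPM in females, which did not overlap (log2 male/female 1.29 ± 0.32) but missed the threshold (edgeR adjusted p = 0.198). At Day 3 the libraries were tight, at 763, 837, 726 and 749.6 CPM in males and 259, 299, 283 and 296 CPM in females, and the 2.71-fold difference passed the adjusted p (log2 1.44 ± 0.08, edgeR adjusted p = 8.16e-06). The fold threshold of 1.5 on the log2 scale was narrowly missed. In males the level fell 8.72-fold by Day 5, to 222, 48.6, 26.9 and 54.8 CPM (log2 -3.12 ± 0.62, edgeR adjusted p = 0.0134), and every Day 5 library was under every Day 0 library. Without the library labelled mouse 1 the log2 change was -4.10 (edgeR adjusted p = 0.000401). DESeq2 gave no p-value for this gene, with a log2 change of -3.13, and edgeR called it under the other alternatives. Female levels at Day 5 were 233, 145, 408 and 422 CPM. The value of 145 CPM, from mouse 2 with 77.9% mitochondrial reads, lay under the lowest female Day 0 library of 224 CPM. The other values lay within the female Day 0 range.

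Slc22a8 (OAT3) showed no change called in the main edgeR fits. Its fall in males at Day 5 was called in 4 of 8 alternatives, DESeq2 and the block on mouse number among them. In males it was 401, 383, 263 and 592 CPM at Day 0, 305 to 436 CPM at Day 3 and 283, 53.5, 29.7 and 27.7 CPM at Day 5, where mouse 1 stayed within the Day 0 range and the other 3 lay far under it (log2 -1.98 ± 0.72, edgeR adjusted p = 0.0787). Without mouse 1 the Day 5 change was -3.35 and passed (edgeR adjusted p = 0.000761). Female libraries spread from 364 to 933 CPM at Day 0 and from 185 to 578 CPM at Day 5, with the lowest adjusted p at Day 3 (log2 -1.16 ± 0.35, edgeR adjusted p = 0.0704).

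Slc22a7 (OAT2) had negative log2 changes on every day after cisplatin in both sexes and was called in males at Day 5, with a Day 0 library that lay apart in both sexes. Male levels were 359, 476, 544 and 83.8 CPM at Day 0, 92.2 to 238 CPM at Day 2, 94.6 to 166 CPM at Day 3 and 112, 89.1, 20.2 and 80.7 CPM at Day 5. The 4.62-fold fall at Day 5 was called (log2 -2.21 ± 0.63, edgeR adjusted p = 0.038) although the groups overlapped, since Day 0 mouse 4 sat among the Day 5 values. Female levels were 483, 552, 740.3 and 99.7 CPM at Day 0 and 92.2 to 133 CPM at Day 5 (log2 -2.03 ± 0.49, edgeR adjusted p = 0.132). With male Day 0 mouse 4 left out, Slc22a7 was called lower at Day 2 (log2 -1.64, edgeR adjusted p = 0.0275) and at Day 3 (log2 -1.74, edgeR adjusted p = 0.00457), in fits that called 2.89 and 5.93% of all genes. Its Day 5 call in males was lost in 6 of 8 fits that left out 1 mouse, with adjusted p up to 0.0939, and held without the library labelled Day 5 mouse 1 (log2 -2.42, edgeR adjusted p = 0.0346).

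Slc22a12, the urate exchanger URAT1, was the most abundant member per kilobase and passed the adjusted p in the same 2 comparisons as Slc22a6. Male levels were 1559.6, 1725, 671 and 1197 CPM at Day 0 and 479, 130.1, 75 and 89.7 CPM at Day 5, a 6.29-fold fall without overlap (log2 -2.65 ± 0.62, edgeR adjusted p = 0.0208). The call held in 3 of 8 fits that left out 1 mouse, with adjusted p up to 0.0714, and without the library labelled Day 5 mouse 1 the log2 change was -3.58 (edgeR adjusted p = 0.000759). At Day 3 the level was 854, 1057, 952 and 993 CPM in males and 455, 418, 549 and 559 CPM in females, 1.95-fold higher in males (log2 0.96 ± 0.12, edgeR adjusted p = 0.000873). At Day 0 the female libraries ran from 234 to 941 CPM and overlapped the male range (log2 male/female 1.22 ± 0.44, edgeR adjusted p = 0.448). By the adjusted p alone 4 of 10 members were higher in males at Day 3 (Slc22a30, Slc22a28, Slc22a6 and Slc22a12), against 10.6% of all genes. Cell type markers moved beside them: by the same measure 5 of 10 proximal tubule markers were higher in males (median log2 male/female 0.60), and 3 of 4 thick ascending limb and 4 of 5 collecting duct markers were higher in females. Their part in the differences of the transporters was not tested. In 1 fit over all 8 groups, which shares the spread of the Day 5 libraries, Slc22a6 (edgeR adjusted p = 0.0934) and Slc22a12 (edgeR adjusted p = 0.459) were no longer past it.

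Slc22a13 and Slc22a19 had no called difference in any of the 13 comparisons with all libraries. Slc22a13, which carries nicotinate and urate, was 89, 94.1, 75.3 and 25.9 CPM in males and 122, 149, 136 and 49.9 CPM in females at Day 0. At Day 5 it was 91.3, 28.6, 6.8 and 20.4 CPM in males (log2 change -0.87 ± 0.66, edgeR adjusted p = 0.371) and 52.7 to 99.4 CPM in females. Slc22a19, the luminal anion transporter, was 83.7, 103, 57.8 and 8.48 CPM in males and 138, 96.8, 118 and 15.7 CPM in females at Day 0, and 63.3, 14, 3.4 and 6.47 CPM in males at Day 5 (log2 change -1.44 ± 0.89, edgeR adjusted p = 0.273). In both genes the male Day 5 mice 2 to 4 lay apart from mouse 1, and Day 0 mouse 4 was the lowest library of its group in either sex.

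Slc22a5, the carnitine transporter, had positive log2 changes on all days in females and through Day 3 in males and a negative one in males at Day 5, and passed no test with all libraries. In females it was 129.8, 88.6, 55.8 and 209.7 CPM at Day 0, 331, 193, 165 and 202 CPM at Day 2 and 184, 179, 219 and 196 CPM at Day 3, with log2 changes of 0.83 ± 0.39 and 0.64 ± 0.35 (edgeR adjusted p = 0.208 and 0.237). In males it was 183, 179.8, 58.5 and 199.8 CPM at Day 0 and 181 to 217 CPM at Day 3, and at Day 5 184, 59.7, 38 and 21.7 CPM (log2 change -0.94 ± 0.61, edgeR adjusted p = 0.291). Without female Day 0 mouse 4, the female rise passed the adjusted p at Day 2 (log2 1.23, edgeR adjusted p = 0.0219) and Day 3 (log2 1.04, edgeR adjusted p = 0.0148), under the fold threshold of 1.5.

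**Figure D3:**
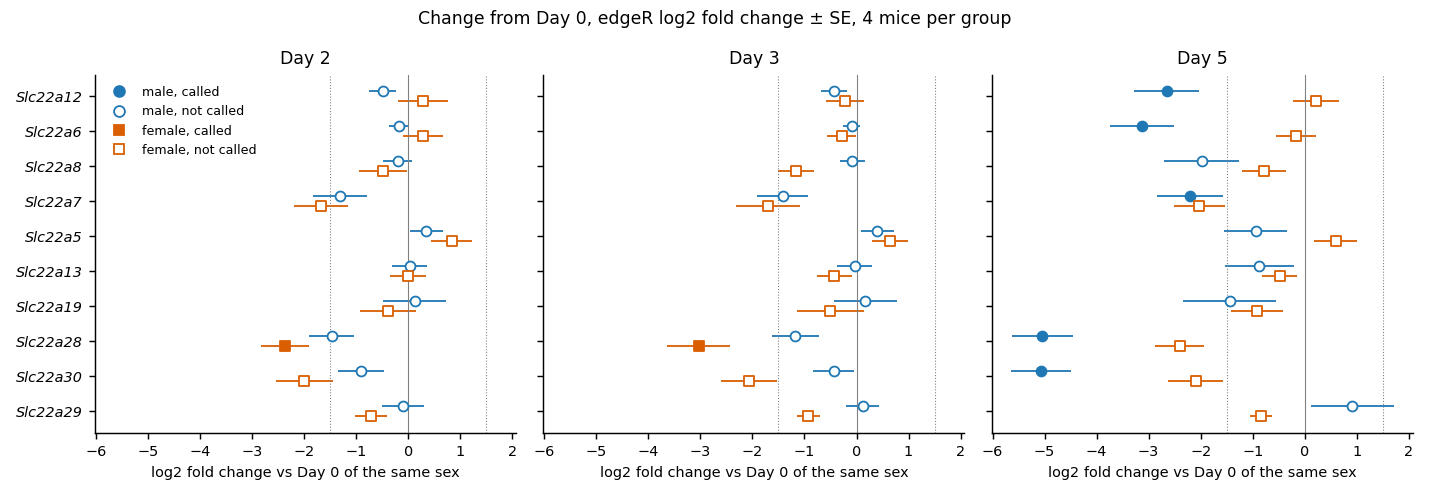
Log2 change from Day 0 of each gene in males and females (points, with bars of 1 SE) at Day 2, 3 and 5, filled where called, with dotted lines at log2 changes of 1.5 in either direction. The filled male points are the 5 members called lower at Day 5, and the filled female points are Slc22a28 at Day 2 and Day 3.

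Counted over the members, males at Day 2 had 0 of 10 called by edgeR and 0 by DESeq2 (0.716% of 16051 genes by edgeR and 2.62% by DESeq2), with 2 at an unadjusted p under 0.05 against 29% of all genes. Males at Day 3 had 0 of 10 by both tools (3.72% of 15908 genes by edgeR and 4.85% by DESeq2), with 2 at an unadjusted p under 0.05 against 40.5%. At Day 5, 5 of 10 members were called lower in males (Slc22a6, Slc22a7, Slc22a12, Slc22a28 and Slc22a30), against 3.69% of 14969 genes, and none was called higher. The median log2 change of the members was -2.09, against 0.04 for all genes tested. For 4 of them (all but Slc22a7) the male Day 0 and Day 5 libraries did not overlap, against 27% of all genes. Beside this, the summed proximal tubule markers of every male Day 5 library lay under the male Day 0 range, and 4 of those 10 markers were called lower (9 without the library labelled mouse 1). Collecting duct markers moved the other way, with 3 of 5 higher by the adjusted p (median log2 change 1.32), and 3 of 4 adrenal cortex markers were called higher. Their part in the transporter values was not tested.

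Leaving out the library labelled male Day 5 mouse 1 changed the Day 5 count the most. Without it 12% of 15221 genes were called in either direction, and 9 of 10 members were called lower in males, with Slc22a5 (log2 -1.83, edgeR adjusted p = 0.021), Slc22a8 (-3.35), Slc22a13 (-1.81, edgeR adjusted p = 0.039) and Slc22a19 (-2.86, edgeR adjusted p = 0.0293) added to the 5, while Slc22a29 stayed under the threshold (log2 -0.62, edgeR adjusted p = 0.448). The remaining 3 libraries had 78.9% or more mitochondrial reads. In the other direction, 3 members (Slc22a6, Slc22a28 and Slc22a30) were left when male Day 0 mouse 1 or 2, or male Day 5 mouse 2, 3 or 4, was left out.

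The Day 5 sex comparison moved in the same way. With all libraries 0 of 10 members were called by edgeR (0.236% of 15237 genes) and 2 by DESeq2 (Slc22a12 and Slc22a6, against 3.24% of all genes), with 3 at an unadjusted p under 0.05 against 20.3% of all genes. The log2 male/female values were -1.67 ± 0.62 for Slc22a6, -1.64 ± 0.60 for Slc22a12 and -1.88 ± 0.76 for Slc22a8 (edgeR adjusted p = 0.191, 0.182 and 0.212), opposite in sign to those of Slc22a6 and Slc22a12 at Day 3. Without male mouse 1, 7.75% of 15562 genes were called in either direction, and 7 members were called lower in males, namely Slc22a12 (log2 -2.54), Slc22a6 (-2.60), Slc22a8 (-3.21), Slc22a5 (-2.02), Slc22a13, Slc22a19 (-2.44) and Slc22a29 (-3.04), and Slc22a28, Slc22a30 and Slc22a7 were not. Male mice 2 to 4 had 78.9, 79.8 and 79.7% mitochondrial reads, against 31.6, 77.9, 22.2 and 9.30% in female mice 1 to 4. Sex and mitochondrial share thus largely went together. With all libraries, the median log2 male/female value was -1.47 for proximal tubule and 0.97 for collecting duct markers, and 3 of 4 adrenal cortex markers were called lower in males. The part of these in the transporter values was not tested.

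**Figure D4:**
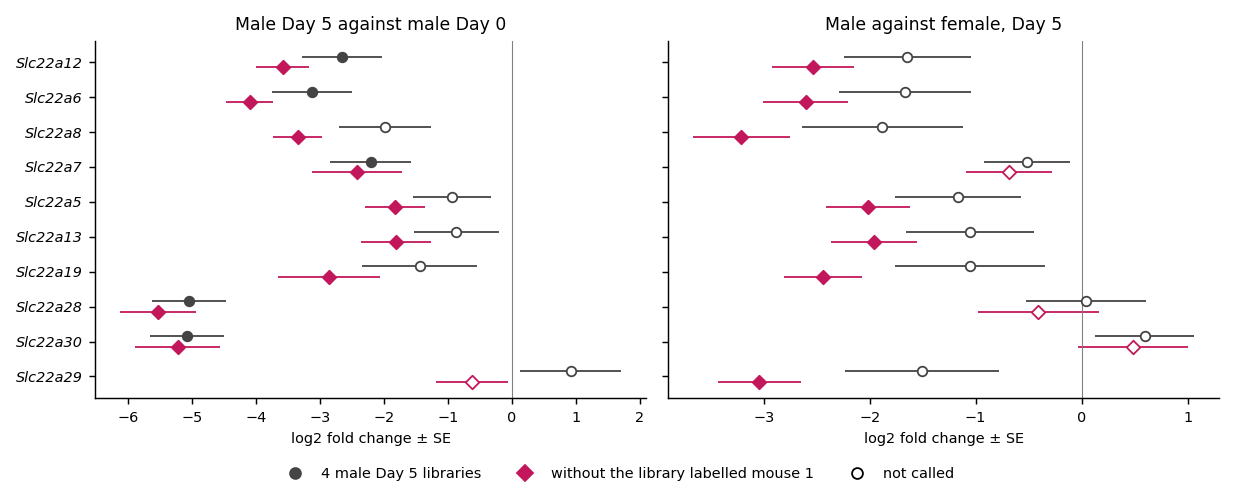
Log2 values of each gene at Day 5 with all libraries and without the library labelled male Day 5 mouse 1, for males against their Day 0 and for males against females. Without that library 9 genes are called in the first panel instead of 5, and 7 in the second instead of 0.

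Whether the change from Day 0 differed between males and females was tested with a sex by day interaction. None of the 10 members was called by edgeR at Day 2 (0% of 17467 genes), Day 3 (0.0114% of 17598) or Day 5 (0.231% of 16907), and DESeq2 called 0, 0 and 4 (Slc22a12, Slc22a6, Slc22a30 and Slc22a28), against 0.0859, 0.222 and 2.63% of all genes. At an unadjusted p under 0.05 there were 0 of 10 at Day 2 against 4.23% of all genes, 4 of 10 at Day 3 against 7.11%, and 4 of 10 at Day 5 against 15.2%. The Day 5 values, male change minus female change on the log2 scale, were -2.98 ± 0.75 for Slc22a6, -2.996 ± 0.775 for Slc22a30, -2.89 ± 0.80 for Slc22a12 and -2.65 ± 0.73 for Slc22a28 (edgeR adjusted p = 0.0978, 0.103, 0.113 and 0.114). Without the library labelled male Day 5 mouse 1, 4.93% of 17410 genes and 6 members were called, these 4 together with Slc22a8 (-2.60) and Slc22a5 (-2.46). The male Day 5 libraries left in that fit had 78.9 to 79.8% mitochondrial reads, against 9.30 to 31.6% in female Day 5 mice 1, 3 and 4 and 77.9% in mouse 2. Sex and mitochondrial share therefore largely went together at Day 5.

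The other Slc22 genes were listed for comparison, 15 in all. In males at Day 5, 11 passed the filter on low counts, 5 were called lower, against 3.69% of all genes, and 1 higher, and their median log2 change was -1.49. The organic cation transporter Slc22a2 (OCT2, log2 -2.44 ± 0.47, edgeR adjusted p = 0.0129) was among those that fell, as were Slc22a18 (-2.27), Slc22a22 (-3.09) and Slc22a26 (-2.93), whereas Slc22a15 rose (2.62 ± 0.34, edgeR adjusted p = 0.00465). Without the library labelled male Day 5 mouse 1, 6 were lower and 1 higher with a median of -1.81, against 12% of 15221 genes called in either direction. The values were then -2.97 for Slc22a2, -2.57 for Slc22a18, -4.27 for Slc22a22, -4.03 for Slc22a26 and 2.82 for Slc22a15, each still called. In females at Day 3 only Slc22a18 of 13 tested was called (log2 -1.57 ± 0.32, edgeR adjusted p = 0.0465), against 1.97% of all genes called lower. Between the sexes at Day 3, Slc22a22 (log2 male/female 2.45 ± 0.45, edgeR adjusted p = 0.0094) and Slc22a26 (2.76 ± 0.56, edgeR adjusted p = 0.0138) were called higher in males among 12 tested, against 0.894% of all genes.

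A list of 20 partner genes of anion and urate handling, 19 of them in the table, held further differences between the sexes. At Day 3, 3 of 19 were called higher in males, against 0.894% of all genes, and 1 higher in females, against 1.04%. Slc5a8, a sodium-coupled monocarboxylate transporter, was higher in males at Day 2 (log2 1.76 ± 0.32, edgeR adjusted p = 0.0276) and Day 3 (1.71 ± 0.15, edgeR adjusted p = 0.000155), as was Slco4c1, an organic anion transporter (1.90 ± 0.36 and 1.71 ± 0.21, edgeR adjusted p = 0.0316 and 0.00113). Slc17a2, a phosphate and anion transporter of the tubule, was higher in females on both days (log2 male/female -4.77 ± 0.52 and -5.29 ± 0.34, edgeR adjusted p = 0.00128 and 2.91e-05). Slco1a1, another organic anion transporter, had 0 to 7 counts per library in females at Day 3 and 130 to 228 CPM in males. In males at Day 5, 5 of 18 tested partners were called lower (3.69% of all genes) and none higher, with a median log2 change of -1.52, Slc5a8 among them (-3.08 ± 0.73, edgeR adjusted p = 0.0215). Without the library labelled male Day 5 mouse 1, when 12% of 15221 genes were called in either direction, 11 were called lower with a median of -2.60, and Slc5a8 was at -4.45.

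Around the carnitine transporter, 12 genes of carnitine synthesis and acylcarnitine handling were listed. Ppara, a transcription factor of fatty acid oxidation, rose in males at Day 2 (log2 1.78 ± 0.33, edgeR adjusted p = 0.0387) and Day 3 (1.71 ± 0.34, edgeR adjusted p = 0.0132). In males at Day 5, 2 of 10 tested were called lower (3.69% of all genes), Crot, the carnitine octanoyltransferase (-2.21 ± 0.49, edgeR adjusted p = 0.0173), and Aldh9a1, an enzyme of carnitine synthesis (-1.62 ± 0.44, edgeR adjusted p = 0.0333), and the median was -0.98. Without the library labelled male Day 5 mouse 1, when 12% of 15221 genes were called in either direction, 4 were called lower with a median of -1.46, Crot at -2.59 and Aldh9a1 at -2.21. Bbox1, which makes the last step of carnitine synthesis, was higher in females at Day 3 (log2 male/female -1.55 ± 0.32, edgeR adjusted p = 0.00926). The injury markers of the tubule moved beside these genes. Lcn2 rose in males at Day 3 (log2 3.53 ± 0.73, edgeR adjusted p = 0.0155) and Day 5 (4.19 ± 0.95, edgeR adjusted p = 0.0185, and 4.56 without the library labelled mouse 1) and in females at Day 3 (4.40 ± 0.81, edgeR adjusted p = 0.0465), and Havcr1 (Kim-1) rose in females at Day 3 (5.86 ± 1.20, edgeR adjusted p = 0.0465), when it was higher in females than in males (log2 male/female -3.60 ± 0.86, edgeR adjusted p = 0.0248).

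The pattern of each member over the 32 libraries was also set against 15035 protein-coding genes by Pearson's r of log2 CPM, as a description without a test, since the libraries share groups, depth and tissue makeup. Slc22a28 was most like Serpinf2 (r = 0.936), Akr1c21 (0.929) and Ugt2b38 (0.917), and Slc22a30 was most like Ugt2b37 (0.959), Timd2 (0.941) and Ces1f (0.939). Slc22a29 was most like Prlr, the prolactin receptor (0.968), Oat (0.933) and Gm10639 (0.931). For the anion and urate genes the nearest were Pyroxd2, Slc22a2 and Them7 for Slc22a6 (0.961, 0.959 and 0.957), Xpnpep1, Slc5a11 and Slc7a7 for Slc22a8 (0.960, 0.958 and 0.956), Dhrs4, Afg3l1 and Nit1 for Slc22a12 (0.975, 0.948 and 0.946) and Slc6a18, Mpi and Ggt6 for Slc22a13 (0.928, 0.923 and 0.914). Those of Slc22a5 included Bmp6 and Pafah2 (0.956 and 0.948), of Slc22a19 Bdh1, Mettl7a2 and Nceh1 (0.936, 0.907 and 0.904), and of Slc22a7 Slc9a8, Stk16 and Atp5f1 (0.888, 0.879 and 0.869). Slc22a7 thus had the weakest nearest neighbour of the 10. Among the members themselves r was 0.949 for Slc22a28 with Slc22a30, which share transcript sequence, 0.941 for Slc22a6 with Slc22a12 and 0.887 for Slc22a13 with Slc22a19, and it was -0.562 for Slc22a29 with Slc22a30.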

How the data were processed

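Total kidney RNA of 32 mice was sequenced, and the authors deposited a table of read counts per gene together with FPKM values (reads scaled to gene length and library size), with 1 column of each per mouse. The submitters' processing notes name HTSeq and DESeq2 and the builds GRCm39 and mm39, with no versions. The aligner's settings, strand use and handling of reads shared by gene copies are not given in the sources used here. Gene coordinates in the deposited table equal those of a GRCm38 annotation for 98.33% of 54409 shared genes and for 7 of 10 members, and the ends of the other 3 (Slc22a6, Slc22a8 and Slc22a12) differ by 1 to 43 bases, so positions are given on that build. The FPKM values served only to check scale on 6275 genes.

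Counts were analysed in R 4.3.3 with edgeR 4.0.16 (TMM normalization, filterByExpr, robust quasi-likelihood test), fitted on all genes of the groups compared and adjusted by Benjamini-Hochberg over all genes tested. The study's thresholds were kept, 0.05 for the adjusted p and 1.5 for the size of the log fold change. The study names no base for that logarithm, and it was read here as log2. The prior count was 2, and SE is the log2 fold change divided by the root of F. Day comparisons within a sex share their Day 0 libraries. DESeq2 1.42.0, other filters and normalizations, a joint fit of the 8 groups, a block on mouse number and leaving out each mouse were alternatives. All 10 members passed the filter in all 13 comparisons. Library totals were 16502107 to 35961325 counts. The Day 5 libraries with most reads from the mitochondrial genome kept 3780528 to 5340637 others, and the lowest member value at Day 5 rests on 8 counts.

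In a simulation of male Day 3 against male Day 0 with 200 changed genes among 15961, edgeR and DESeq2 each recovered 199 with 0 false calls. Every simulated gene had the same fixed spread between mice, only well-counted genes were changed, by large amounts, and no library lay apart. The simulation thus checked the procedure and gives no rate of recovery or of false calls for the real libraries. Mouse numbers did not pair the libraries throughout: in 0 of 10 comparisons checked did every same-numbered pair deviate together by a correlation over 0.1 (range -0.42 to 0.48). Between the sexes at Day 0, however, the correlations for mice 1 to 4 were 0.27, -0.08, 0.45 and 0.48. Whether same-numbered Day 0 libraries were handled together was not tested. Members and lists were chosen with earlier results of these data known. Named genes were members, other Slc22 genes called in at least 1 comparison, up to 4 partner and 4 carnitine genes, the 3 genes most like each member, and sex and injury markers, and 2 genes that the rule names are not reported here. Of the members, 9 had a RefSeq promoter entry (Slc22a7 had none), read with Python 3.11.15 and aligned with Biopython 1.88. Protein sequences were not used here.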

Additional observations from a re-analysis of the deposited data

Results flagged for a closer look

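In 4 of 80 groups of 4 mice, 1 library's gap to the nearest of the others exceeded Dixon's 95% critical value as a share of the group's range, and chance gives about 1 in 20. Slc22a30 in male Day 0 mouse 4 was 53.9 CPM against 188 to 197 CPM in the other 3 mice (ratio 0.962). Slc22a5 in male Day 0 mouse 3 was 58.5 CPM against 179.8 to 199.8 CPM (ratio 0.914). In male Day 3 mouse 1, Slc22a5 was 181 CPM against 214 to 217 CPM (ratio 0.909). Slc22a19 in female Day 0 mouse 4 was 15.7 CPM against 96.8 to 138 CPM (ratio 0.835). Mouse 4 of both Day 0 groups also had the highest mitochondrial share of its group, and the part of that in these values was not tested.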

How the results depend on the processing

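Of 124 counts of called members recomputed under alternatives over 13 comparisons, 104 stayed within 1.5 times the count given above, and no called value changed sign. DESeq2 called 3 members in females at each of Day 2, 3 and 5 (5.08, 5.63 and 2.19% of all genes), 2 between the sexes at Day 5 and 4 in the Day 5 interaction. The fit over all 8 groups gave 3 in each of these 5 comparisons. Of 18220 genes it called 1149, 1183 and 671 in females at Day 2, 3 and 5, 544 between the sexes at Day 5 and 740 in the Day 5 interaction. At least 10 counts in every library gave 2 in females at Day 2 (441 of 13573 genes) and at Day 3 (529 of 13774). No filter gave 0 at Day 3 (428 of 31833 genes) and 3 at Day 5 (135 of 29602). The adjusted p alone gave 2 in females at Day 3 and 5 between the sexes at Day 3. The replicate block on mouse number gave 0 in females at Day 3. Between the sexes at Day 0 it gave 3, with 121 of 16042 genes called against 58 in the main fit. In males at Day 5 it gave 5, with Slc22a8 in place of Slc22a7. DESeq2 also gave 5 there, with Slc22a8 in place of Slc22a6, which had no p-value. With 1 mouse left out at a time the count ranged over 0 to 2, 0 to 1 and 3 to 9 in males at Day 2, 3 and 5, over 0 to 3 in females on each day, over 0 to 3, 3 to 3, 3 to 3 and 0 to 7 between the sexes at Day 0, 2, 3 and 5, and over 0 to 0, 0 to 0 and 0 to 6 in the interactions. Sets chosen after seeing the data gave 9 in males at Day 5 (male Day 0 mouse 4 and Day 5 mouse 1 left out), where 2335 of 14892 genes were called. With male mouse 1 and female mouse 2 left out at Day 5, they gave 7 between the sexes (1732 of 15355 genes) and 6 in the interaction (1192 of 17287 genes). Leaving out both Day 0 mice 4 gave 3 between the sexes at Day 0 (79 of 16063 genes). Apart from what these alternatives construct, the cause was not tested. Slc22a28, Slc22a29 and Slc22a30 had the fewest counts in males at Day 5, with lowest libraries of 11, 8 and 11 counts. The part of the high mitochondrial share in this was not tested. Small differences between such low counts may have been missed.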
